A study of Ovis aries with 22 samples.

Results

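Schwann cell and nerve genes are described here in the sinus wall of the sheep (Ovis aries) great arteries. The set was given by name and holds 6 genes: SOX10, CDH19, MBP, S100B, NGFR and NCAM1. All 6 were found in the count tables of both sequencing runs, out of 26200 named genes, and all 6 passed the filter on low counts that left 14979 genes for testing. Autograft sinus came from 3 sheep, 6 months after their pulmonary root had been transplanted into the aortic position (labelled Ross surgery). Aortic sinus and pulmonary sinus came from 4 other sheep, D3 to D6, each giving both tissues, and the series describes them as non-operated. Aortic replicate 1 (D3) nevertheless carries the treatment label Ross surgery, so results are also given without animal D3. The labels give no strain or age. Each of the 11 libraries was sequenced in 2 runs, which were summed.

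Schwann cells are the glia of peripheral nerves. They wrap axons, some with myelin and others without, and SOX10 is the transcription factor that specifies and maintains them. The arterial wall carries mainly thin autonomic and sensory fibres, which run in the adventitia and along the border of the media, with Schwann cells of the kind that makes no myelin. A root that is cut out and moved loses its nerve supply. After nerve injury, Schwann cells are known to shut down myelin genes and to raise repair genes such as NGFR. Neuregulin acting on the ERBB2 and ERBB3 receptor pair keeps Schwann cells alive.

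Library totals lay between 17380599 and 20741334 counts. Smooth muscle markers were high in every library. Levels are in CPM (counts per 1e6 counts of the library, scaled by edgeR's TMM factors). The sum over 6 genes was lower in all 3 autograft libraries than in all 8 native ones. It lay between 23454 and 46450 CPM in the autograft, 47438 and 67120 CPM in aortic sinus, and 49503 and 80284 CPM in pulmonary sinus. Gene by gene, all autograft libraries lay below all pulmonary libraries for 2 of the 6, and below all aortic libraries for 3. On the first principal component (37.9% of the variance), pulmonary replicate 1 lay at 9.34 and the other pulmonary libraries between -67.6 and -29.5. Autograft replicate 1 stood apart on the second component, at 64.1, where the other libraries lay between -31.5 and 24.2. The libraries of one animal did not always vary together. Deviations from the group means correlated at 0.43 for D5 and 0.45 for D6, but at -0.18 for D3 and -0.13 for D4, while aortic D4 and pulmonary D3 gave 0.40 and aortic D3 and pulmonary D4 gave 0.26. Whether D3 and D4 are crossed in 1 tissue's labels was not tested. The labels were kept, so values without animal D3 and with an animal block hold only as far as these labels do.

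CDH19 was the member with the most negative difference between autograft and both native sinuses. It encodes cadherin 19, a cell adhesion molecule of Schwann cells and their precursors. The autograft libraries held 6.58, 20.2 and 19.3 CPM. Aortic sinus held 29.9, 62.6, 33.0 and 35.7 CPM. Pulmonary sinus held 59.3, 62.3, 23.7 and 29.4 CPM. All 3 autograft libraries lay below all 8 native libraries, a pattern shown by 7.18% of all tested genes. The autograft mean was 15.4 ± 7.62 CPM (SD, n = 3), against 40.3 ± 15.1 CPM in aortic sinus and 43.7 ± 19.95 CPM in pulmonary sinus (SD, n = 4 each). Autograft over pulmonary sinus gave a log2 fold change of -1.51 ± 0.46 (SE) and missed the threshold with an adjusted p of 0.0559 in edgeR's quasi-likelihood test (Benjamini-Hochberg over all genes, threshold 0.05). For autograft over aortic sinus it was -1.39 ± 0.46 with an edgeR adjusted p of 0.114. DESeq2 called both, with an adjusted p of 0.00648 against pulmonary sinus and 0.0246 against aortic sinus. Leaving out single libraries kept the difference from pulmonary sinus between -1.76 and -1.15, and the edgeR adjusted p between 0.0525 and 0.137. Without animal D3 it was -1.32 (edgeR adjusted p = 0.0895), and without pulmonary replicate 1 and autograft replicate 1 together -0.98 (0.155). In bulk tissue, fewer Schwann cells and less of this RNA per cell cannot be told apart.

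SOX10 also had its lowest group mean in the autograft, from fewer counts. It had 1.18, 2.91 and 3.24 CPM in the autograft. The aortic libraries had 3.09, 8.75, 4.36 and 4.78 CPM, and the pulmonary libraries had 4.80, 7.08, 5.06 and 3.03 CPM. Autograft replicate 1 was the lowest of all 11 libraries, and autograft replicate 3 overlapped the lowest native libraries. Behind these values stood 21, 50 and 57 counts in the autograft and 53 to 175 counts in the native libraries. For the 21 counts of autograft replicate 1, the exact Poisson 95% interval ran from 13.0 to 32.1 counts, which covers counting error only. SOX10 differed by a log2 fold change of -1.03 ± 0.45 against pulmonary sinus (edgeR adjusted p = 0.146) and -1.10 ± 0.45 against aortic sinus (edgeR adjusted p = 0.177). The unadjusted p of 0.0416 and 0.0314 passed 0.05, and DESeq2 gave adjusted p of 0.0926 and 0.104. In no fit with a library left out was SOX10 called, and its difference stayed negative, from -1.29 to -0.71 against pulmonary sinus.

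**Figure D1:**
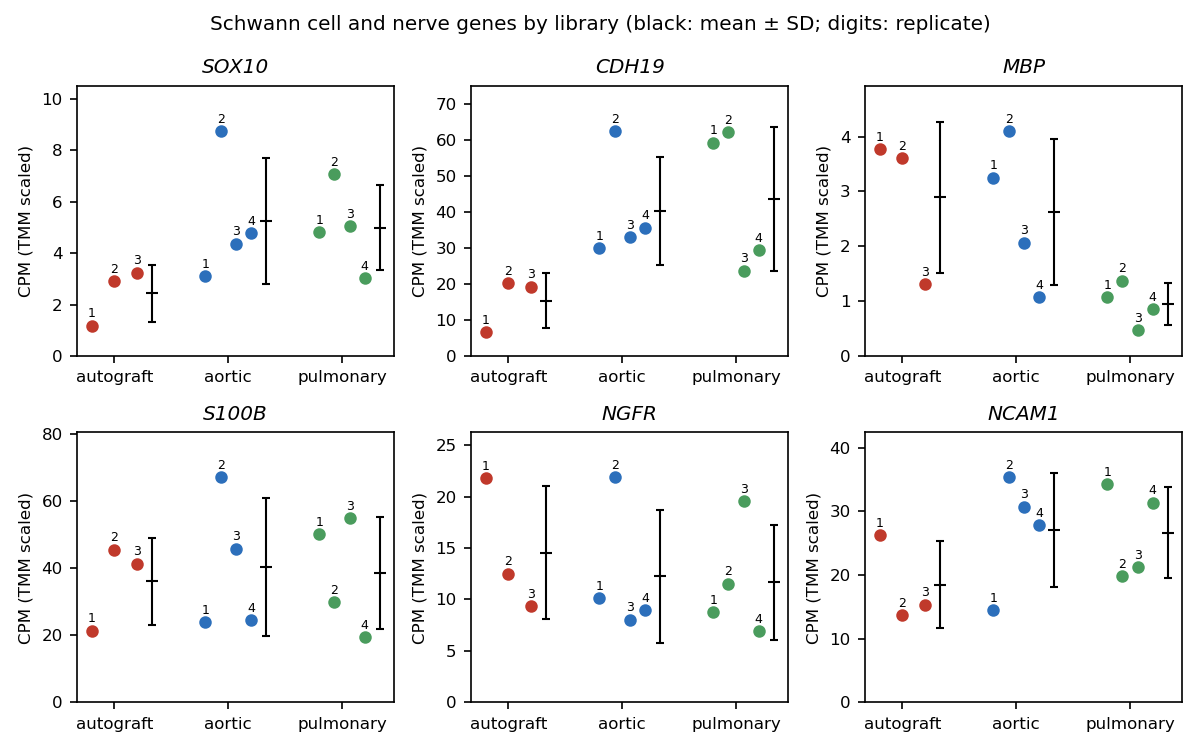
Expression of the 6 genes (CPM, TMM scaled, linear axis from 0) in every library of autograft, aortic and pulmonary sinus, with the replicate number above each point and mean ± SD in black. CDH19 in the autograft stays at or under 20.2 CPM, below all native libraries, while S100B and NGFR overlap between groups.

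MBP, which encodes myelin basic protein of compact myelin, ordered the groups differently. In mouse and human the same gene also makes golli transcripts in blood-forming and immune cells. The autograft had 3.77, 3.61 and 1.31 CPM. Aortic sinus had 3.25, 4.10, 2.07 and 1.07 CPM, while pulmonary sinus had 1.07, 1.37, 0.468 and 0.858 CPM. Pulmonary sinus held the 3 lowest libraries, and autograft replicate 3 lay just inside its range. Its log2 fold change was 1.62 ± 0.53 for autograft over pulmonary sinus (edgeR adjusted p = 0.0708), and 0.14 ± 0.52 for autograft over aortic sinus (0.894). Without autograft replicate 3 the comparison with pulmonary sinus passed, at 1.96 with an edgeR adjusted p of 0.0430, and DESeq2 called it with all libraries (adjusted p = 0.0271). For aortic over pulmonary sinus the difference was 1.48 ± 0.50, with an unadjusted p of 0.0134 and an edgeR adjusted p of 0.9999. MBP counts were low, from 23 to 67 in the autograft, from 20 to 82 in aortic sinus and from 10 to 24 in pulmonary sinus.

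S100B, a calcium-binding protein of Schwann cells that adipocytes, dendritic cells and chondrocytes also make, did not follow CDH19. The autograft had 21.4, 45.6 and 41.4 CPM. Aortic sinus had 23.9, 67.2, 45.9 and 24.5 CPM, and pulmonary sinus had 50.3, 30.0, 55.0 and 19.6 CPM. The 3 groups covered nearly the same range. Log2 fold changes were -0.10 ± 0.44 against pulmonary sinus (edgeR adjusted p = 0.902) and -0.16 ± 0.44 against aortic sinus (0.858). Both turned positive without autograft replicate 1, at 0.16 and 0.11, and without some of the native libraries.

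NGFR, the low-affinity neurotrophin receptor p75, marks non-myelinating and injured Schwann cells and also some fibroblasts and follicular dendritic cells. It had 21.8, 12.5 and 9.37 CPM in the autograft. It had 10.1, 21.9, 8.03 and 8.97 CPM in aortic sinus and 8.76, 11.5, 19.6 and 6.92 CPM in pulmonary sinus. Each group held 1 library near 20 CPM, and the groups overlapped. NGFR had a log2 fold change of 0.31 ± 0.44 against pulmonary sinus and 0.25 ± 0.44 against aortic sinus (edgeR adjusted p = 0.666 and 0.773). Without autograft replicate 1 these became -0.11 and -0.16, so the sign rested on that library.

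NCAM1, a neural cell adhesion molecule of non-myelinating Schwann cells and axons that heart muscle and natural killer cells also carry, had 26.3, 13.7 and 15.3 CPM in the autograft. Aortic sinus had 14.5, 35.3, 30.7 and 27.9 CPM, against 34.2, 19.9, 21.2 and 31.3 CPM in pulmonary sinus. Autograft replicates 2 and 3 were among the 3 lowest libraries, together with aortic replicate 1. NCAM1 had a log2 fold change of -0.53 ± 0.33 against pulmonary sinus (edgeR adjusted p = 0.294) and -0.55 ± 0.33 against aortic sinus (0.335).

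Over the 6 genes, edgeR called 0 in autograft against pulmonary sinus, where 11.3% of all tested genes passed, 6.05% with a higher and 5.29% with a lower autograft. It called 0 against aortic sinus, where 2.38% of all genes were called (0.948% higher and 1.43% lower). Unadjusted p was under 0.05 for 3 members against pulmonary sinus (CDH19, MBP and SOX10), against 30.6% of all genes (14.3% with a lower autograft), and for 2 against aortic sinus (CDH19 and SOX10), against 23.0% of all genes (11.5% lower). DESeq2 called 2 members, CDH19 and MBP, against pulmonary sinus (17.4% of all genes with an adjusted p) and 1, CDH19, against aortic sinus (8.82%). The libraries did not overlap for 1 of 6 members, CDH19, in either comparison, where the autograft was lower. Against pulmonary sinus 22.1% of all genes had no overlap (11.2% lower and 10.9% higher), and against aortic sinus 20.6% (10.8% lower and 9.77% higher). The median log2 fold change of the members was -0.32 against pulmonary sinus and -0.36 against aortic sinus, beside 0.0013 and 0.0018 over all genes. Both comparisons share the 3 autograft libraries. Without animal D3 edgeR also called 0 members in both.

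**Figure D2:**
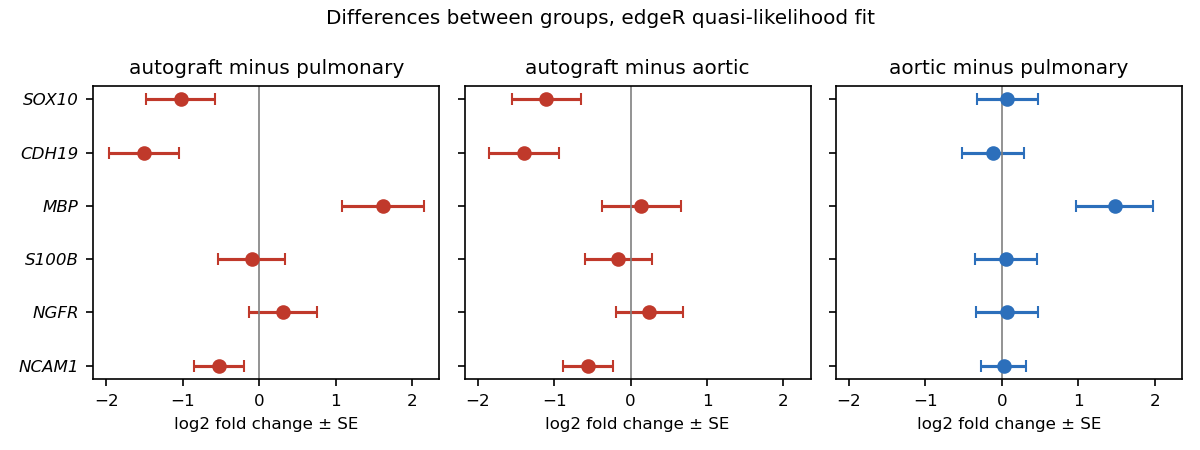
Log2 fold change ± SE of the 6 genes in the 3 comparisons, from the edgeR fit with all 11 libraries. SOX10 and CDH19 lie near -1 to -1.5 in both autograft panels and near 0 between the native sinuses, where MBP stands at 1.48.

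Between the native sinuses the members other than MBP lay close together. The log2 fold changes for aortic over pulmonary sinus were 0.07 ± 0.40 for SOX10, -0.11 ± 0.40 for CDH19, 0.06 ± 0.41 for S100B, 0.07 ± 0.41 for NGFR and 0.02 ± 0.30 for NCAM1. The edgeR test called 0 of 6 members and 0.0% of all genes, DESeq2 called 0.0%, and unadjusted p was under 0.05 for 1 member, MBP, and for 2.04% of all genes (0.774% lower in aortic sinus). For 0 members the libraries did not overlap, against 1.42% of all genes (0.714% higher and 0.701% lower). Aortic replicate 2 (D4) was the highest of all 11 libraries for each of the 6 members. Without aortic replicate 2 the autograft minus aortic difference was -1.09 for CDH19 and -0.73 for SOX10.

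Levels can be set between genes only per length. In the authors' FPKM of the second run, whose step from counts is not given, S100B was the highest member in each group, with medians of 24.3 in the autograft, 22.6 in aortic sinus and 25.1 in pulmonary sinus. CDH19 had medians of 2.05, 4.27 and 5.001 FPKM in that order of groups, and SOX10 of 2.495, 4.66 and 4.80 FPKM. MBP was lowest, at 0.888, 0.945 and 0.329 FPKM. By these run 2 medians, SOX10 and CDH19 both lay below NGFR in the autograft (3.996 FPKM). In native sinus their medians lay above that of NGFR (3.44 FPKM in aortic and 3.93 FPKM in pulmonary sinus). Single libraries broke this order. In run 2, NGFR was above SOX10 and CDH19 in pulmonary replicate 3 (7.13 against 4.43 and 3.16 FPKM). It was also above SOX10 in aortic replicate 1 (3.54 against 2.64 FPKM). In run 1, SOX10 was above NGFR in autograft replicate 3 (5.18 against 3.01 FPKM).

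Ratios of counts within a library need no scaling between libraries, and these were chosen after the values were seen. S100B counts per SOX10 count were 18.1, 15.7 and 12.8 in the autograft. They were 7.74, 7.67, 10.5 and 5.12 in aortic sinus and 10.5, 4.24, 10.9 and 6.45 in pulmonary sinus. The autograft libraries were above all native ones, with 21, 50 and 57 SOX10 counts behind the autograft ratios. How often other gene pairs separate the groups in this way was not tested. S100B per CDH19 was 3.25, 2.26 and 2.14 in the autograft, between 0.687 and 1.39 in aortic sinus and between 0.482 and 2.32 in pulmonary sinus, where pulmonary replicate 3 overlapped the autograft. CDH19 per SOX10 overlapped between groups, at 5.57 to 6.94 in the autograft, 7.15 to 9.67 in aortic sinus and 4.69 to 12.4 in pulmonary sinus.

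**Figure D3:**
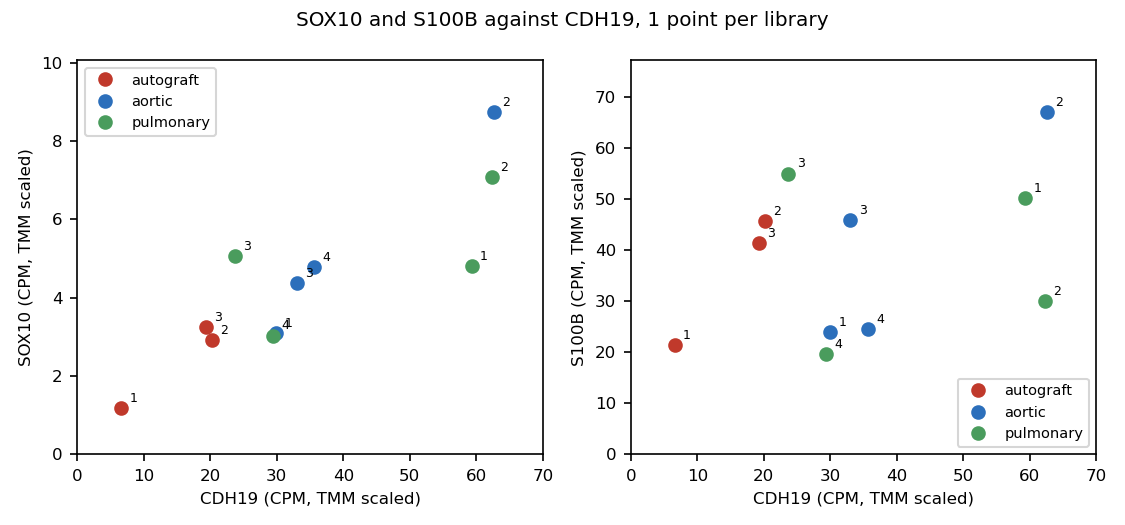
SOX10 (left) and S100B (right) against CDH19, all in CPM with TMM scaling, 1 point per library with its replicate number. SOX10 goes with CDH19 over the libraries, with autograft replicate 1 at the low end and aortic replicate 2 at the high end, while S100B scatters.

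Across the 11 libraries, which come from 7 animals and share group differences, log2 CPM of SOX10 and CDH19 correlated at r = 0.91 (Spearman's rho 0.79), and at r = 0.71 over the 8 native libraries alone. The other member pairs ranged from -0.30 (NGFR and CDH19) to 0.57 (S100B and SOX10). Of the genes tested, the 3 most like SOX10 were FOXD3 (r = 0.96), a neural crest and Schwann precursor transcription factor, BOK (0.96) and PLXNB3 (0.94). Among those most like CDH19 were LRRC20 (0.97) and JPH1 (0.95). For S100B they were ADGRF3 (0.93), CDKL2 (0.92) and CST6 (0.89), for NCAM1 ZC3H11A (0.93), EXOC5 (0.93) and KIAA0754 (0.93), for MBP SLC39A11 (0.91), TMED1 (0.89) and NECAP2 (0.88), and for NGFR EFNB3 (0.90), EFNB1 (0.84) and LOC105607533 (0.83). FOXD3 itself had 0.619, 0.932 and 1.36 CPM in the autograft, against 1.47 to 3.90 CPM in aortic sinus and 1.31 to 2.51 CPM in pulmonary sinus.

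The wider nerve gene lists were then read against the members. Of 20 Schwann cell identity genes, 17 were tested, 4 of them members. Against pulmonary sinus 1 fell and 0 rose (5 passed in DESeq2), and against aortic sinus 0 passed in edgeR and 4 in DESeq2. EdgeR called 11.3% of all genes against pulmonary sinus (5.29% lower) and 2.38% against aortic sinus. DESeq2 called 17.4% of all genes against pulmonary and 8.82% against aortic sinus. For 10 of the 17, unadjusted p was under 0.05 in each comparison, beside 30.6% of all genes against pulmonary and 23.0% against aortic sinus. The log2 fold change was negative for 14 of 17 in each comparison, with a median of -0.91 against pulmonary sinus and -0.98 against aortic sinus.

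The gene that fell was LGI4, a protein secreted by Schwann cells that myelination needs in the mouse. It had 16.4, 36.6 and 30.7 CPM in the autograft. It had 56.5, 85.4, 53.1 and 49.95 CPM in aortic sinus and 52.4, 86.2, 49.1 and 51.7 CPM in pulmonary sinus, so all autograft libraries lay below all native ones. LGI4 differed by a log2 fold change of -1.10 ± 0.30 against pulmonary sinus (edgeR adjusted p = 0.0410) and -1.14 ± 0.30 against aortic sinus (0.0738). The first call was at the threshold. It held without aortic replicate 2 or pulmonary replicate 1 and ended without any other single library, with an edgeR adjusted p of up to 0.104 without pulmonary replicate 2. It also ended with run 2 alone (0.0577), with the 2 groups alone (0.0817) and in the limma fits of FPKM (0.0540 to 0.0581).

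ERBB3, the neuregulin receptor of Schwann cells, had 28.7, 23.0 and 20.6 CPM in the autograft. Aortic sinus had 50.9, 65.9, 38.1 and 35.4 CPM, and pulmonary sinus had 53.7, 63.8, 35.6 and 32.2 CPM. Its autograft libraries again lay below all native ones, with log2 fold changes of -0.94 ± 0.28 (edgeR adjusted p = 0.0516) and -0.98 ± 0.28 (0.0834) against pulmonary and aortic sinus. CMTM5 lay lower in the same way, with 2.15 to 3.12 CPM in the autograft, 3.60 to 7.85 CPM in aortic sinus and 3.28 to 6.84 CPM in pulmonary sinus (edgeR adjusted p = 0.109 against pulmonary and 0.103 against aortic sinus). In all, 4 of the 17 identity genes, CDH19, ERBB3, LGI4 and CMTM5, had every autograft library below every native one, and 0 had every one above. Over all 14979 tested genes, 1076 lay below in this way (7.18%) and 1032 above. EGR2, which drives myelin genes in Schwann cells and is also an early response gene in other cells, went the other way, with 8.49, 5.18 and 30.8 CPM in the autograft against 1.31 to 7.57 CPM in pulmonary sinus (log2 fold change 2.22 ± 0.73, edgeR adjusted p = 0.0706).

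**Figure D4:**
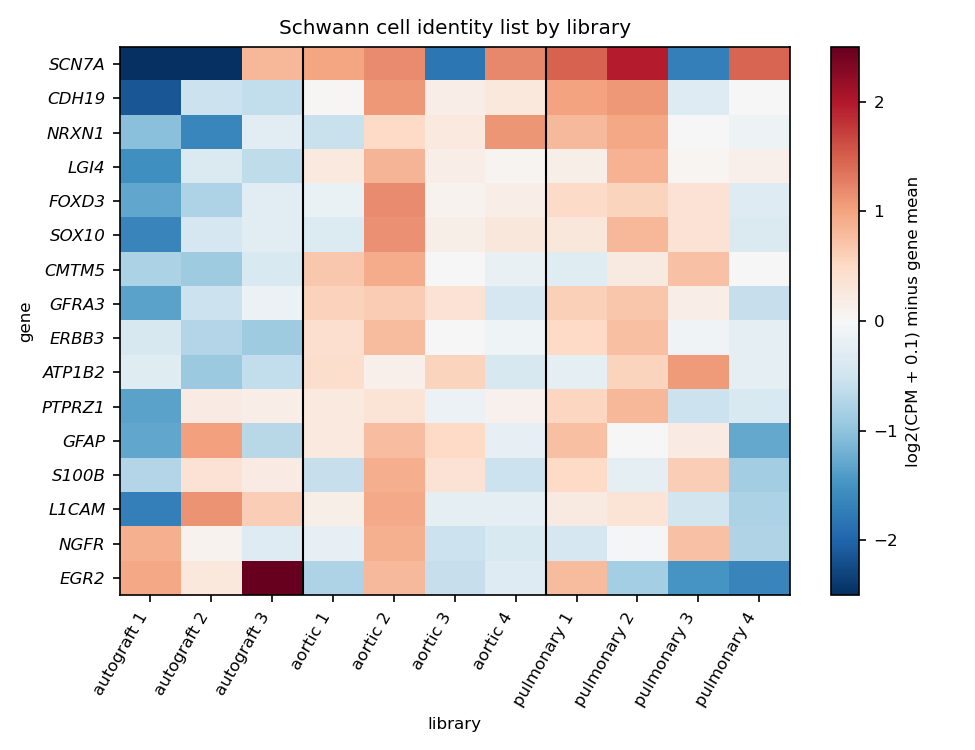
Expression of 16 of the tested Schwann cell identity genes (rows, ordered by the autograft minus native difference) in the 11 libraries, as log2(CPM + 0.1) minus the gene's mean, with colours capped at 2.5 either way. Autograft columns are blue from SCN7A down to ATP1B2 except for SCN7A in replicate 3, and S100B, L1CAM and NGFR near the bottom are mixed.

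Of 15 myelin genes, 9 were tested, and 1, PRX, fell against both native sinuses. Of all genes, edgeR called 5.29% lower against pulmonary sinus and 1.43% lower against aortic sinus. PRX encodes periaxin of myelinating Schwann cells and is also expressed in endothelium. It had 11.6, 14.1 and 13.1 CPM in the autograft, against 21.5 to 25.4 CPM in aortic sinus and 18.4 to 27.1 CPM in pulmonary sinus. The log2 difference was -0.78 ± 0.15 against pulmonary sinus (edgeR adjusted p = 0.0142, called whichever library was left out but not with the 2 groups alone, 0.0540) and -0.84 ± 0.15 against aortic sinus (0.0275). The second call ended without any autograft or any aortic library, with an edgeR adjusted p of up to 0.0830 without aortic replicate 3, and without animal D3 (0.0646). Of the list's other tested genes, UGT8 had 0.0562 to 0.795 CPM in the autograft, below its 0.918 to 1.35 CPM in aortic sinus and overlapping 0.400 to 1.98 CPM in pulmonary sinus. PMP22 had 291 to 394 CPM in the autograft, below its 399 to 531 CPM in aortic sinus and overlapping 319 to 456 CPM in pulmonary sinus. CNP had 106 to 110 CPM in the autograft, overlapping 87.9 to 125 CPM in aortic sinus and above its 78.8 to 96.6 CPM in pulmonary sinus. None of these 3 was called in either comparison (lowest edgeR adjusted p = 0.147). MAG, NCMAP, CLDN19, GJB1 and FA2H did not pass the filter. The list's median was -0.14 against pulmonary sinus and -0.84 against aortic sinus.

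Of 12 repair Schwann cell genes, 8 were tested and 0 passed in edgeR in either comparison, while DESeq2 called 1 against pulmonary sinus and 0 against aortic sinus. FOS, RUNX2, BTC and GDNF had the smallest p, with log2 fold changes of 2.08 ± 0.65, 1.41 ± 0.63, 1.13 ± 0.52 and 2.44 ± 1.07 against pulmonary sinus. GDNF, a growth factor that injured Schwann cells secrete, had 0.169, 2.504 and 0.738 CPM in the autograft against 0 to 0.609 CPM in pulmonary sinus. Negative log2 fold changes were found for 3 of the 8 repair genes against pulmonary sinus and for 4 of 8 against aortic sinus. JUN had a lower mean in the autograft (290 CPM) than in aortic (353 CPM) and pulmonary sinus (383 CPM), and the libraries overlapped. Of 21 axon and neuron genes, 10 were tested and 0 passed in edgeR in either comparison (2 in DESeq2 against pulmonary sinus). NEFL, NEFM and NEFH, the neurofilament genes, stayed under the filter with at most 1.03 CPM in any library. STMN2, a growth-associated tubulin regulator, had 14.3 CPM in autograft replicate 1 and 0.641 and 0.284 CPM in the other autograft libraries, against 0 to 3.15 CPM in aortic sinus and 0.113 to 0.750 CPM in pulmonary sinus. SNAP25, a synaptic release protein, had 4.95, 1.46 and 0.625 CPM in the autograft, 0 to 1.35 CPM in aortic sinus and 0 to 0.452 CPM in pulmonary sinus. TAC1, which encodes substance P, had 42.97, 43.9 and 12.1 CPM in the autograft, 6.89 to 19.1 CPM in aortic sinus and 1.03 to 14.6 CPM in pulmonary sinus. All 3 overlapped aortic sinus. For STMN2, SNAP25 and TAC1 the edgeR adjusted p were 0.0984, 0.0684 and 0.0688 against pulmonary sinus, and 0.403, 0.258 and 0.306 against aortic sinus. The list's log2 fold change was negative for 3 of 10 genes against pulmonary sinus (median 0.36) and for 6 of 10 against aortic sinus (median -0.33). CHGA and PRPH had means of 0.287 and 0.266 CPM in the autograft, against 1.23 and 1.11 CPM in aortic sinus, with overlap. In pulmonary sinus the means were 0.279 and 0.297 CPM. For 1 of the 10 genes the autograft libraries lay below all libraries of the compared sinus, in each comparison. Against pulmonary sinus 1 also lay above. Of all genes, 11.2% lay below and 10.9% above against pulmonary sinus, and 10.8% below against aortic sinus.

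**Figure D5:**
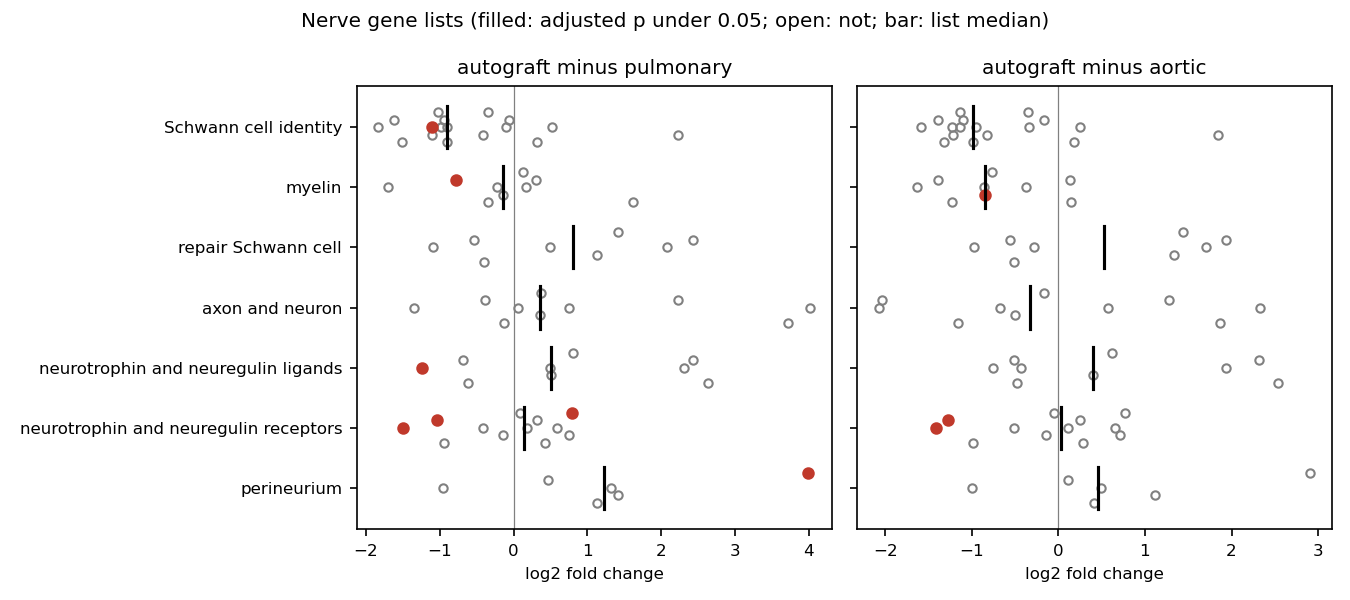
Log2 fold changes of every tested gene in 7 nerve lists for the autograft against pulmonary sinus (left) and against aortic sinus (right), with called genes filled, other genes open and the list median as a bar. The Schwann cell identity medians lie at -0.91 and -0.98, and called genes are few in every list.

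Receptors held 3 of the 7 nerve genes called against pulmonary sinus and 2 of the 3 called against aortic sinus. Of all genes, edgeR called 11.3% and 2.38% in these comparisons. NTRK3, the receptor of neurotrophin 3, which vascular smooth muscle also expresses, had 15.5, 18.3 and 26.2 CPM in the autograft. It had 40.4 to 66.1 CPM in aortic sinus and 42.9 to 71.2 CPM in pulmonary sinus. It fell by 1.499 ± 0.26 on the log2 scale against pulmonary sinus (edgeR adjusted p = 0.0114, called whichever library was left out) and by 1.42 ± 0.26 against aortic sinus (0.0295). The second call ended without autograft replicates 1 or 2 or without aortic replicates 1, 3 or 4, with an edgeR adjusted p of up to 0.102 without autograft replicate 2, without animal D3 (0.0596), and without pulmonary replicate 1 and autograft replicate 1 together (0.0504). Smooth muscle markers were lower in the autograft too. All 6 had negative log2 fold changes in both comparisons. Their sum was 23454, 45086 and 46450 CPM in autograft replicates 1 to 3, against at least 47438 CPM in aortic sinus and 49503 CPM in pulmonary sinus. MYOCD, which drives smooth muscle genes, fell by 1.89 against pulmonary sinus and by 1.94 against aortic sinus (edgeR adjusted p = 0.0042 and 0.0065), and MYH11, smooth muscle myosin, fell by 1.30 against pulmonary sinus (0.0197). The other markers were not called, so edgeR called 2 of 6 against pulmonary and 1 of 6 against aortic sinus. Of all genes, 5.29% and 1.43% were called lower. The part of smooth muscle in NTRK3 was not tested.

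ERBB2, the partner of ERBB3 and a gene of many cell types, had 82.9, 65.3 and 66.2 CPM in the autograft, against 103 to 204 CPM in aortic sinus and 118 to 172 CPM in pulmonary sinus. It fell by 1.03 ± 0.23 against pulmonary sinus (edgeR adjusted p = 0.0221) and by 1.28 ± 0.23 against aortic sinus (0.0284). The first call ended without autograft replicates 2 or 3 or without pulmonary replicate 3 (edgeR adjusted p up to 0.0750), and in the limma fits of FPKM (0.0596 to 0.0642). The second ended without autograft replicates 2 or 3 or without aortic replicates 1, 3 or 4 (up to 0.0985), without animal D3 (0.0596) and in the limma fits of FPKM (0.0724 to 0.0757).

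NRP1, a semaphorin receptor of axons and endothelium, rose by 0.80 ± 0.21 against pulmonary sinus (edgeR adjusted p = 0.0367), with 125 to 157 CPM in the autograft, 72.2 to 104 CPM in aortic sinus and 50.9 to 95.9 CPM in pulmonary sinus. Its call ended without any one of the autograft libraries or pulmonary replicates 2, 3 or 4 (up to 0.108), with the 2 groups alone (0.0725) and in 2 of the 3 limma fits of FPKM (0.0530 and 0.0536). NTRK2, the receptor of brain-derived neurotrophic factor, had 129 to 202 CPM in the autograft, 78.8 to 108 CPM in aortic sinus and 70.3 to 127 CPM in pulmonary sinus (edgeR adjusted p = 0.0904 against pulmonary and 0.0782 against aortic sinus). Of 14 receptor genes, 12 were tested. Against pulmonary sinus 1 rose and 2 fell, and against aortic sinus 2 fell. DESeq2 called 4 of the 12 against pulmonary sinus and 5 against aortic sinus, beside 17.4% and 8.82% of all genes.

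Of 12 ligand and guidance genes, 9 were tested, and 1 fell against pulmonary sinus and 0 passed against aortic sinus (0 in DESeq2). Of all genes, edgeR called 5.29% lower against pulmonary sinus. NTN1, which encodes the axon guidance protein netrin 1, had 19.9, 22.5 and 27.7 CPM in the autograft, against 33.8 to 44.5 CPM in aortic sinus and 29.0 to 82.6 CPM in pulmonary sinus. It fell by 1.25 ± 0.28 against pulmonary sinus (edgeR adjusted p = 0.0222), a call that ended without autograft replicates 1 or 2 or pulmonary replicates 2 or 3 (up to 0.0731), or with the 2 groups alone (0.0679). The other 8 were not called. NRG1, the neuregulin gene, had 0.844, 4.13 and 2.21 CPM in the autograft, 0.0574 to 1.24 CPM in aortic sinus and 0.0571 to 1.41 CPM in pulmonary sinus. Of 7 perineurium genes, 6 were tested. CLDN1, a tight junction protein, rose against pulmonary sinus (3.99 ± 1.05, edgeR adjusted p = 0.0370), where 6.05% of all genes were called higher. That call rested mainly on autograft replicate 1, at 11.7 CPM against 1.05 and 1.25 CPM in the other autograft libraries and 0.114 to 0.621 CPM in pulmonary sinus. Without that library the difference was 1.97 with an edgeR adjusted p of 0.196, and the call also ended without autograft replicate 2, aortic replicates 3 or 4 or pulmonary replicates 2, 3 or 4. With all libraries kept, it ended in limma-voom (adjusted p = 0.105), with the random animal block (0.110), in edgeR with the 2 groups alone (0.0657) and in the 3 limma fits of FPKM (0.110 to 0.117), and DESeq2 gave no adjusted p.

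Taking the 7 lists without the members, 60 genes were tested. Against pulmonary sinus 2 rose and 5 fell, 11.7% of them beside 11.3% of all genes. Against aortic sinus 0 rose and 3 fell, 5.0% beside 2.38% of all genes. The share of called nerve genes against pulmonary sinus was thus near that of all genes. Against aortic sinus it was higher, but it rested on 3 genes. Of all genes, 5.29% were called lower against pulmonary sinus and 1.43% against aortic sinus.

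Several members are expressed in other cell types, whose markers differed between the groups. T and natural killer cell markers (12 genes) summed to 49.6 to 62.0 CPM in the autograft, against 7.91 to 12.4 CPM in aortic sinus and 3.83 to 9.32 CPM in pulmonary sinus. EdgeR called 10 of 11 tested genes higher against pulmonary sinus and 8 of 11 against aortic sinus. Of all genes, 6.05% and 0.948% were called higher in these comparisons. Dendritic cell and macrophage markers (11 genes) summed to 159 to 594 CPM in the autograft, 92.0 to 215 CPM in aortic sinus and 55.9 to 195 CPM in pulmonary sinus. Of 10 tested, 4 were called higher against pulmonary sinus and 0 against aortic sinus. Adventitial fibroblast markers (9 genes) summed to 9207 to 12182 CPM in the autograft, 5098 to 6496 CPM in aortic sinus and 2647 to 8146 CPM in pulmonary sinus. Of these 9, 3 were called higher against pulmonary sinus and 2 against aortic sinus. The parts of these cells in MBP, S100B, NGFR and NCAM1 were not tested.

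Adipocyte markers (10 genes) varied widely within groups, at 67.8, 976 and 529 CPM in the autograft, 113 to 528 CPM in aortic sinus and 111 to 307 CPM in pulmonary sinus. Autograft replicate 1, lowest in this sum, was also the second lowest library in S100B. Aortic replicate 2, with the highest native sum, was highest in S100B. Other libraries did not follow this order. Autograft replicate 2, with the highest sum of all (976 CPM), had 45.6 CPM of S100B, inside the native range. Pulmonary replicate 3 had 55.0 CPM of S100B at the lowest native adipocyte sum. Cardiac muscle markers (10 genes) summed to 429 to 1378 CPM in the autograft, 329 to 2783 CPM in aortic sinus and 577 to 2309 CPM in pulmonary sinus. Chondrocyte markers (6 genes) summed to 48.8 to 85.4, 45.7 to 65.8 and 51.6 to 61.7 CPM in that order of groups. Endothelial markers (7 genes) summed to 178 to 1572 CPM in the autograft, 242 to 575 CPM in aortic sinus and 117 to 410 CPM in pulmonary sinus. Markers of B cells and follicular dendritic cells (7 genes) summed to 10.3 to 115 CPM in the autograft, 9.07 to 28.8 CPM in aortic sinus and 1.26 to 27.1 CPM in pulmonary sinus, with the highest sum in autograft replicate 1, where NGFR was also high. In aortic replicate 2 and pulmonary replicate 3, with NGFR at 21.9 and 19.6 CPM, these markers summed to 14.9 and 3.75 CPM. The part of these cells was not tested either.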

How the data were processed

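TRIzol extraction and a TruSeq library kit are named in the labels' protocols. Of the tools, the submitters' processing notes list cutadapt, Bowtie2 2.3.3.1, STAR 2.5.2b, and also featureCounts 1.5.3, without saying what each was used for. The sources used here do not name the build, annotation or strand setting, and overlapping genes may share reads. The authors deposited a table of raw counts per gene symbol for each run. Their unnamed row (at most 0.000522% of counts) was left out. The deposited FPKM tables hold the authors' FPKM and served as an alternative unit and for levels between genes. No FPKM is 0, although 4505 of the raw counts behind the first run's values are, so FPKM is not a plain rescaling of these counts.

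Both runs of a library were summed. Their chi-square per gene was 1.39 to 1.52, while libraries of 1 group gave 31.9 to 112. Genes were filtered by edgeR's filterByExpr and scaled by TMM, and the 3 groups entered 1 quasi-likelihood fit with no block. Versions were edgeR 4.0.16, DESeq2 1.42.0 and limma 3.58.1 under R 4.3.3. SE is the absolute log2 fold change over the square root of F. Log2 CPM for correlations has a prior count of 2. The test was checked on simulated counts. These were drawn independently per library with the fitted dispersions, so the check does not cover outlying libraries or shared animals. Animal names in the labels pair aortic with pulmonary libraries, and the correlations of their deviations are given above. All 6 members and 18717 of 26200 symbols matched RefSeq names of ARS-UI_Ramb_v3.0, used for names only, and sequences and coordinates are not used here. Of 186 list genes, 172 were in the table. The members and lists were chosen with earlier results of these data known. Named genes were all members, called genes and up to 4 genes with the smallest p per nerve list and comparison, and the 3 genes most like each member. For lists of other cells, summed levels are given. Some genes that the rule would name are not reported here. The neurofilament and pigment genes were named after their values were seen. Alternatives were each run alone, 2 other scalings, DESeq2, limma-voom, 2 filters, the compared groups alone, libraries left out, animal blocks and FPKM with limma.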

Additional observations from a re-analysis of the deposited data

Results flagged for a closer look

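In groups of 4, a library was set apart when its gap to the next exceeded 0.829 of the group's range. Over 48 genes and 96 groups this marked 12 cases. The limit marks about 1 in 20 groups when values are normal and independent. The same libraries recur over the genes, and whether CPM is normal was not tested, so 12 cannot be set against that rate. Among the members it marked NGFR in aortic replicate 2, at 21.85 CPM against 8.035 to 10.15 CPM in the other aortic libraries.

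Aortic replicate 2 was also marked high for ITGA6, a laminin receptor subunit of the perineurium list (65.51 CPM against 16.59 to 19.76 CPM), and low for NTN4 (38.06 CPM against 45.05 to 45.28 CPM). In other aortic libraries, CNP, an enzyme of myelin, was high in replicate 1 (125.0 CPM against 87.87 to 91.02 CPM), SORT1, the sortilin gene, was high in replicate 4 (46.3 CPM against 23.59 to 24.68 CPM), and SCN7A, a sodium channel gene, was low in replicate 3 (1.722 CPM against 12.68 to 14.61 CPM).

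Pulmonary replicate 1 was marked high for BDNF (4.52 CPM against 0.8575 to 1.077 CPM), EGR2 (7.57 CPM against 1.315 to 2.341 CPM), ITGA6 (36.33 CPM against 8.854 to 9.991 CPM) and SEMA3A (0.7909 CPM against 0 to 0.1142 CPM). LGI4 was high in pulmonary replicate 2 (86.21 CPM against 49.09 to 52.37 CPM), and NRG1 in pulmonary replicate 3 (1.405 CPM against 0.05709 to 0.2858 CPM).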

How the results depend on the processing

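Of 471 values of single members under an alternative, 418 kept their direction and their side of the threshold, 5 passed only there and 48 changed sign. The cause was not tested. The count of members called against pulmonary sinus was 0, but 1 in run 1 alone (CDH19, adjusted p = 0.0486), 2 with DESeq2, and 0 to 1 with a library left out. Against aortic sinus it was 1 with DESeq2. Genes called overall (1699 against pulmonary and 356 against aortic sinus) were 2980 and 1441 with DESeq2, 479 against pulmonary sinus with those 2 groups alone and 110 against aortic sinus without animal D3. With a library left out they ranged from 452 to 2753 and from 25 to 576. Nerve list genes called, members included, ranged from 2 to 14 against pulmonary and from 0 to 4 against aortic sinus with a library left out, and from 2 to 14 and from 0 to 11 (DESeq2) under the other alternatives, beside 7 and 3. For aortic against pulmonary sinus, the count of genes called was 0 in every fit, the replicate block by animal included. With the random block by animal (correlation 0.12) it was 1611 against pulmonary and 361 against aortic sinus, and the blocks changed no member's call.

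With a library left out, the results that changed sign ranged against pulmonary sinus from -0.32 to 0.16 (S100B) and from -0.11 to 0.67 (NGFR), against aortic sinus from -0.12 to 0.49 (MBP), -0.35 to 0.21 (S100B) and -0.16 to 0.70 (NGFR), and for aortic minus pulmonary from -0.32 to 0.28 (S100B), -0.31 to 0.29 (SOX10), -0.14 to 0.23 (NCAM1), -0.39 to 0.43 (NGFR) and -0.43 to 0.11 (CDH19).

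Sign changes for autograft minus pulmonary were S100B at 0.0083 in run 1, 0.16 without autograft replicate 1, 0.029 and 0.11 without pulmonary replicates 1 and 3, 0.051 without D3 and 0.29 without pulmonary 1 and autograft 1, and NGFR at -0.11 without autograft replicate 1 and -0.24 without pulmonary 1 and autograft 1. For autograft minus aortic they were MBP at -0.087 and -0.034 without autograft replicates 1 and 2, -0.12 without aortic replicate 4 and -0.10 without the pair, S100B at 0.11 without autograft replicate 1, 0.21 without aortic replicate 2 and 0.10 without the pair, and NGFR at -0.16 without autograft replicate 1 and -0.17 without the pair.

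For aortic minus pulmonary, NCAM1 was -0.077 in run 1, -0.0093 with limma-voom and with the random block, -0.0055 with the replicate block, and -0.14, -0.042, -0.094 and -0.076 without aortic 2, aortic 3, pulmonary 2 and pulmonary 3. SOX10 was -0.019 in run 2, -0.31 and -0.10 without aortic 2 and pulmonary 4, and -0.089, -0.12 and -0.089 with FPKM + 1, FPKM + 0.1 and filtered FPKM. CDH19 was 0.0041, 0.052 and 0.11 without aortic 1, pulmonary 1 and pulmonary 2, 0.19 without D3 and 0.052 without the pair. S100B was -0.32, -0.0071, -0.044 and -0.16 without aortic 2, aortic 3, pulmonary 2 and pulmonary 4, and -3.239e-05 with FPKM + 0.1. NGFR was -0.39, -0.067 and -0.12 without aortic 2, pulmonary 1 and pulmonary 4, -0.067 without the pair, and -0.025, -0.029 and -0.025 with the 3 FPKM settings. Filtering FPKM left out MBP. Depth limits MBP and SOX10 most, with as few as 10 and 21 counts.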

Other observations

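SOX10 is also a gene of pigment cells, and pigment genes appeared in single libraries of each group. TYRP1, an enzyme of melanin synthesis, had 1.80 CPM in autograft replicate 2, 8.59 CPM in aortic replicate 4 and 5.25 CPM in pulmonary replicate 1, and 0 counts in the other 8 libraries. MLANA, a melanosome protein, showed the same 3 libraries, with 1.22, 2.90 and 2.03 CPM, and 0 counts elsewhere. DCT had 0.699, 2.74 and 2.26 CPM there and at most 0.0562 CPM elsewhere, and PMEL was highest in the same 3, at 7.34, 7.36 and 6.61 CPM. SOX10 stood at 2.91, 4.78 and 4.80 CPM in these libraries, inside the range of the others of its groups.

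SCN7A, a sodium channel gene of non-myelinating Schwann cells, fell into a low and a high set of libraries. The low set was autograft replicates 1 and 2 (0.731 and 0.932 CPM) and both sinuses of animal D5, with 1.72 CPM in aortic and 1.87 CPM in pulmonary sinus. The other libraries held 11.4 CPM in the autograft, 12.7 to 14.6 CPM in aortic sinus and 17.4 to 24.95 CPM in pulmonary sinus.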
